A study of Mus musculus with 16 samples.

Results

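The class III POU factors Pou3f1 (Oct6), Pou3f2 (Brn2), Pou3f3 (Brn1) and Pou3f4 (Brn4) were followed through retinoic acid-driven neuronal differentiation of mouse embryonic stem (ES) cells with and without Taf4a. They were taken by gene name from the table of normalised counts, which gave 4 genes of the 27807 in the table. Poly-A RNA was sequenced from ES cells grown on inactivated fibroblast feeders and from embryoid bodies (EBs), floating aggregates of differentiating cells, that were collected before retinoic acid (EB4) and at an early (EB5) and a late (EB8) time of the treatment. Each stage had Taf4+/+ libraries (WT) and Taf4a-/- libraries (KO), 2 of each, hence 16 libraries in 8 groups. The ES lines were derived from blastocysts of crosses between heterozygous mice, and 2 independent lines of each genotype were used. The labels number the libraries of a group but do not say which line each came from, and p-values measure the spread between these libraries.

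POU factors bind DNA with a bipartite domain made of a POU-specific part and a homeodomain. The class III genes have no introns in their coding part and are best known from the developing nervous system, where Pou3f2, Pou3f3 and Pou3f4 are expressed in neural progenitors and young neurons with overlapping patterns. Pou3f1 is also a marker of the epiblast and acts in early neural induction and, later, in Schwann cells. Taf4a encodes Taf4, a subunit of TFIID, the complex through which the TATA-binding protein reaches promoters.

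In WT cells, Pou3f2, Pou3f3 and Pou3f4 were near or just above detection in ES cells and at EB4 and reached 459.5 to 2289.3 normalised counts at EB8. In KO cells at EB8, they were at 1.88%, 2.81% and 0.785% of the WT mean, respectively, and all 3 differences passed the test. Pou3f4 reached the minimum level for the test only through WT EB8, and with no such minimum its limma adjusted p was 0.000312. Of all genes tested, 12.5% were called lower in KO at EB8 and 2.17% at EB5. Pou3f2 was the only 1 of the 3 to pass at EB5, and that call was lost in 7 of 16 alternative settings. Pou3f1 had at most 19 reads in any library and was below the minimum level for the test.

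All 4 genes have a single exon in the annotation of the mm9 (NCBI37) build. Pou3f2 (ENSMUSG00000052621) lies on chromosome 4, 22413791 to 22415480, minus strand, with 1690 exon bases. Pou3f3 (ENSMUSG00000045515) lies on chromosome 1, 42753991 to 42757052, plus strand, with 3062 exon bases. Pou3f4 (ENSMUSG00000056854) lies on the X chromosome, 108009729 to 108010910, plus strand, with 1182 exon bases. RefSeq gives these 3 genes longer extents on a later build, 6272, 4443 and 4730 bases, and since the annotation used for counting is not given in the sources used here, it is not known which of these bases the counts cover. Pou3f1 (ENSMUSG00000078236) lies on chromosome 4, 124334896 to 124337899, plus strand, and of its 3004 exon bases 3003 are shared with a second gene model of the same name and strand (ENSMUSG00000090125), so that its values are uncertain: reads that fall in both models may have been left out of the count.

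The letters just before the transcription starts of the 3 genes that differed are shown because TFIID acts at promoters. They are from RefSeq on build GRCm38.p6, which matched 3 of the 4 genes (all but Pou3f1), and run 5′ to 3′ on the gene's strand over the 250 bases before the start, chr4:22488367-22488616 (minus strand) for Pou3f2, chr1:42695518-42695767 (plus strand) for Pou3f3 and chrX:110814129-110814378 (plus strand) for Pou3f4. Capitals mark CCAAT, or ATTGG where the box is on the other strand.
Pou3f2: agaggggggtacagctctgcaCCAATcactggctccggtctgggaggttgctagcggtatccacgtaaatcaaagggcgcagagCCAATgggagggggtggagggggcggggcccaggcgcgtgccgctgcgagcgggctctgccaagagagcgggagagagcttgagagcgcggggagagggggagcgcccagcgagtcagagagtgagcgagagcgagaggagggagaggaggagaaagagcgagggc
Pou3f3: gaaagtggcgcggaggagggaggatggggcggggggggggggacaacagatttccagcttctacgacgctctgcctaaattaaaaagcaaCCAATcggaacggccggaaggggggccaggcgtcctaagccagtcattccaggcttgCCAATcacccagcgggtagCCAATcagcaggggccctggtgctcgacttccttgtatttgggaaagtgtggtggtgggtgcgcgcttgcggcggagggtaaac
Pou3f4: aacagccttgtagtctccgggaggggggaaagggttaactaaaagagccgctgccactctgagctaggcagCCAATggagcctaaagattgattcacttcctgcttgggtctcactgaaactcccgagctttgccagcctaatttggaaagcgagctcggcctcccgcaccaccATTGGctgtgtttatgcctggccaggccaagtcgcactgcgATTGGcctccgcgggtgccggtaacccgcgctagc

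The motifs were chosen after the sequences had been seen, and matches were counted on both strands. CCAAT occurred 2 times before Pou3f2, 3 times before Pou3f3 and 3 times before Pou3f4. Of 32841 RefSeq promoters of the same length, 33.9% held it at least 1 time, 10.1% at least 2 times and 2.79% at least 3 times. The TATA box (TATAAA, in 12.4% of promoters), the octamer bound by many POU factors (ATGCAAAT, in 1.6%) and the core sequence of retinoic acid receptor sites (AGGTCA, in 14%) were not in these windows. The 3 windows had 66.8%, 60.8% and 58% G and C, against a median of 52.4% over all promoters, and 18, 15 and 13 CpG dinucleotides against a median of 6. These are descriptions of letters and not of bound sites.

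Depth, as reads in genes recovered from the normalised values, was 22442118 to 27685306 in the EB libraries and 32631020 to 40711826 in the ES libraries. Depth and the ES stage thus cannot be told apart, and whether the libraries came from different sequencing batches is not known. Taf4a itself was not lower in the KO libraries (1972.8 to 2400 normalised counts, against 1590.9 to 1959.6 in WT), and a count per gene does not show which exons were read. The Y-linked gene Ddx3y was at 0 in WT ES replicate 2 and at 173.6 to 1236.9 in the other WT libraries, against at most 35.9 in KO. Each WT library of EB4, EB5 and EB8 was thus above every KO library. The part of this difference in KO against WT was not tested. The level of the X chromosome, the median log2 deviation of 613 genes, was 0.357 to 0.546 in the 4 KO libraries numbered 2 and in WT ES replicate 2, compared with -0.257 to -0.151 elsewhere. Chromosome 11 was at 0.18 to 0.27 in the 4 KO libraries numbered 1 and at -0.0801 to -0.0147 in those numbered 2, and chromosome 8 was at 0.385 to 0.411 in replicate 1 of WT EB4, EB5 and EB8 and at -0.158 to 0.0271 in all other libraries. Same-numbered libraries thus shared these levels across all 4 stages in KO and across the 3 EB stages in WT, although the labels tie no number to a line. WT ES replicate 2 stands apart from the other WT libraries, and comparisons that include WT ES are given with and without it.

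In ES cells no member had more than 13.7 normalised counts, that is, the reads of a gene after scaling by the library's size factor. Pou3f2 had 2.7 and 0 in the WT libraries and 3.3 and 4.3 in KO. Pou3f3 had 13.7 and 9.6 in WT, while KO had 5.8 and 9.3. Pou3f4 had 9.1 and 8 in WT, while KO had 5.8 and 2.1. Both KO values lay above both WT values for Pou3f2, an arrangement found for 19% of all genes tested, and below them for Pou3f3 and Pou3f4, found for 20.7%. The log2 changes were 1.31, -0.57 and -1.04 and none passed (limma adjusted p 0.651, 0.707 and 0.651, where 0% of the 16124 genes tested passed). At an unadjusted p below 0.05 the test had 1846 genes, none of them a member, and DESeq2 on the recovered reads called 476. Without WT ES replicate 2 none of the 3 passed either.

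At EB4, before retinoic acid, levels were still low. Pou3f2 had 5.5 and 8.6 normalised counts in the WT libraries while the KO libraries had 7 and 1.3, and the groups overlapped. Pou3f3 had 6.6 and 6.4 in WT, while KO had 5.8 and 3.8. Pou3f4 had 11 and 12.9 in WT, while KO had 8.2 and 1.3. For Pou3f3 and Pou3f4 both KO values were below both WT values, as for 26.6% of all genes. With log2 changes of -0.88, -0.38 and -1.49, the limma adjusted p was 0.629, 0.684 and 0.272, and none of the 3 was among the 3.37% of genes called lower. From ES to EB4 no member passed in WT (log2 change 2.03, -0.73 and 0.44 for Pou3f2, Pou3f3 and Pou3f4) or in KO (-0.16, -0.54 and -0.02), beside 16.5% and 3.5% of genes called in either direction, nor did any pass in WT without WT ES replicate 2.

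**Figure D1:**
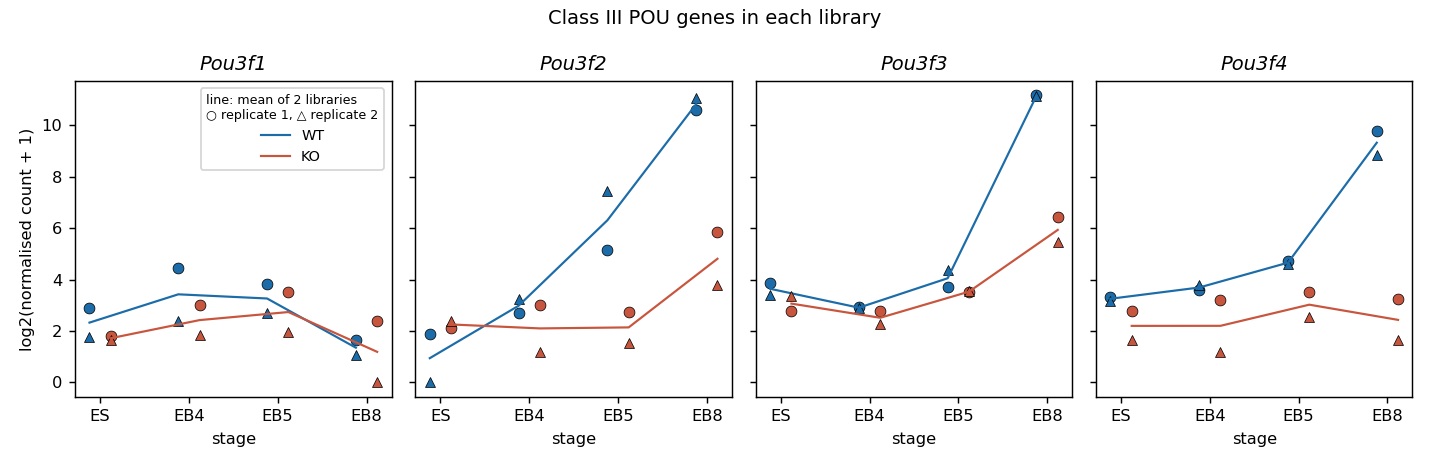
Each panel plots 1 gene, with log2(normalised count + 1) in every library against stage, WT in blue and KO in red, circles for replicate 1 and triangles for replicate 2, and lines through the means of 2 libraries. Pou3f2, Pou3f3 and Pou3f4 climb to EB8 in WT and lie far lower in KO. The counts of Pou3f1, which are uncertain, do not climb in either.

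At EB5, early in the retinoic acid treatment, Pou3f2 was the only member called. Its WT libraries had 34.8 and 173.5 normalised counts (37 and 158 reads) and its KO libraries 5.7 and 1.9 (6 and 2 reads). The groups did not overlap, but the WT libraries themselves differed widely. The KO mean was 27.3-fold lower, a log2 change of -4.16 ± 0.96 (SE) that passed the test (limma adjusted p 0.0347, with 2.17% of all genes called lower). This call was not stable: it was lost without WT EB5 replicate 2 (adjusted p 0.237), without KO EB5 replicate 1 (0.0543) or replicate 2 (0.33), and in 4 of the other settings tried. The fold was 9.13 without WT EB5 replicate 2, 18.3 without KO EB5 replicate 2, 45.5 without WT EB5 replicate 1 and 53.7 without KO EB5 replicate 1. The last divides by a single library with 2 reads, at the floor of 3 reads, so its size is uncertain. Every setting gave a negative change, of -5.3 to -3.01.

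Pou3f3 and Pou3f4 did not exceed 25.4 normalised counts at EB5. Pou3f3 had 12.2 and 19.8 normalised counts in the WT libraries while the KO libraries had 10.4 and 10.7. Pou3f4 had 25.4 and 23.1 in WT, while KO had 10.4 and 4.8. Both KO values were below both WT values for all 3 genes, as for 28.1% of genes tested. The log2 change was -0.52 ± 0.49 for Pou3f3 and -1.62 ± 0.77 for Pou3f4 (limma adjusted p 0.582 and 0.252), with 95% intervals of -1.58 to 0.54 and -3.29 to 0.04.

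Between EB4 and EB5 the mean of Pou3f2 in WT was 14.8-fold higher, with a log2 change of 3.33 ± 0.96. The fold was 4.95 without WT EB5 replicate 2 and 24.7 without WT EB5 replicate 1. It did not pass (limma adjusted p 0.0886, with 2.59% of genes called higher), and it passed with a pseudocount of 5, with edgeR and with DESeq2. Pou3f3 and Pou3f4 had log2 changes of 1.14 and 0.97 in WT (adjusted p 0.291 and 0.663). In KO the changes were 0.05, 1.01 and 0.84 for Pou3f2, Pou3f3 and Pou3f4 and none passed, where 1.82% of genes were called higher. The difference between genotypes in this step was -3.27 ± 1.36 for Pou3f2 and did not pass (limma adjusted p 0.9999, unadjusted p 0.0327); limma called 0% of genes in this contrast, with 478 at an unadjusted p below 0.05, and DESeq2 called 4.

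In WT all 3 genes were at their highest at EB8. Pou3f2, a factor of progenitor division and neuronal migration in the cortex, had 1541.6 and 2122.8 (1468 and 2005 reads) normalised counts in the WT libraries while the KO libraries had 55.9 and 12.8 (53 and 12 reads). Pou3f3, which acts with Pou3f2 in the cortex and alone in the kidney, had 2289.3 and 2234 in WT, while KO had 84.4 and 42.6 (80 and 40 reads). Pou3f4, known for its role in the inner ear and striatum, had 887.3 and 459.5 in WT, while KO had 8.4 and 2.1 (8 and 2 reads). For all 3 genes both KO values were below both WT values, an arrangement that 33.5% of genes tested show. The lowest WT value among them was 459.5 and the highest KO value 84.4. In KO, replicate 2 was below replicate 1 at every stage for Pou3f4, which lies on the X chromosome. The normalised counts of Pou3f1, on chromosome 4, had the same order, but both its KO ES libraries had 3 reads. The part of the level of the X chromosome in the values of Pou3f4 was not tested.

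The KO means at EB8 were 53.3-fold lower for Pou3f2, 35.6-fold lower for Pou3f3 and 127-fold lower for Pou3f4. Without KO EB8 replicate 1 the folds were 143, 53.1 and 316, and without KO EB8 replicate 2 they were 32.8, 26.8 and 79.8. The 316-fold value divides by KO EB8 replicate 2 alone, with 2 reads of Pou3f4, at the floor of 3 reads, so its size is uncertain. On the log2 scale the changes were -6.01 ± 0.96, -5.21 ± 0.49 and -6.88 ± 0.77 (SE, limma adjusted p 0.00108, 4.69e-05 and 0.000134). All 3 were called, where 12.5% of all genes were called lower and the median change of all genes was -0.03. They were also called in each of the 16 settings tried, with a highest adjusted p of 0.0134, 0.00164 and 0.00345. Pou3f4 reached the minimum mean of 10 through WT EB8 (mean of 9.47 without these libraries), and its adjusted p with no filter was 0.000312. The 95% intervals overlap one another (-8.1 to -3.92, -6.27 to -4.15 and -8.54 to -5.21), and whether the genes differ in the size of the change was not tested.

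**Figure D2:**
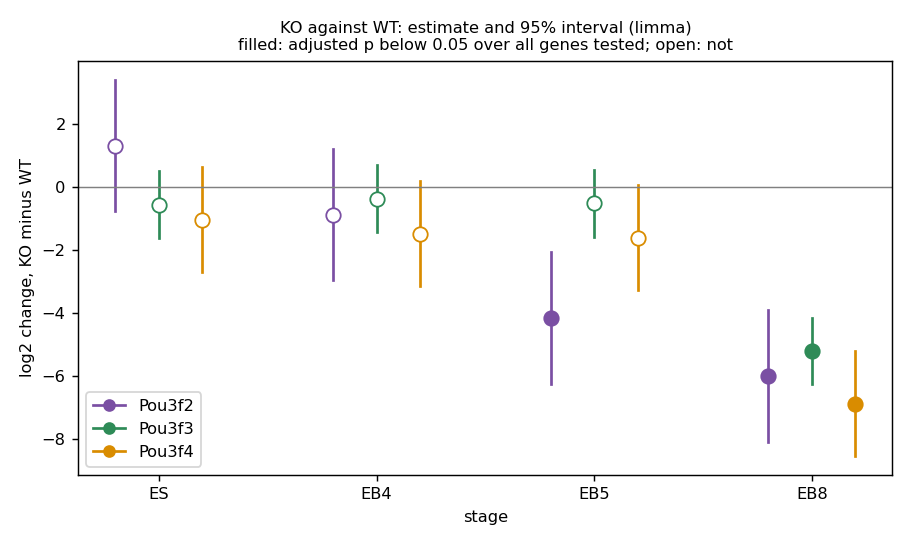
The log2 change of KO minus WT is plotted against stage for the 3 genes tested, as the limma estimate with its 95% interval, filled where the adjusted p over all genes was below 0.05. Only Pou3f2 is filled at EB5, and all 3 are filled at EB8, at -6.01, -5.21 and -6.88.

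Markers of cell types also differed between genotypes, and in bulk samples fewer cells of a type and less RNA per cell cannot be told apart. Some differed already at EB4, where no class III POU gene was called. There, 2.75% of all genes were called higher in KO and 3.37% lower. Dppa5a, Esrrb and Klf4 of 7 pluripotency markers were higher, as was Tubb3 of 5 neuronal markers. Msi1 of 8 neural progenitor markers and Cubn of 5 endoderm markers were lower. At EB5, where 2.17% of all genes were called in each direction, Msi1 and Pax6 of 8 neural progenitor markers were lower in KO (summed level 21045 to 32198 in WT and 6987.5 to 11892 in KO). Dppa5a, Esrrb and Nanog of 7 pluripotency markers were higher (8383.1 to 12038 in WT and 36879 to 64699 in KO). Tubb3 of 5 neuronal markers was higher and Cubn and Foxa2 of 5 endoderm markers were lower at EB5, and no feeder, mesoderm, Schwann cell and neural crest or keratinocyte marker was called. At EB8, where 12.5% of all genes were called lower and 10.4% higher, 7 of 8 neural progenitor markers tested were lower in KO (summed level 56065 to 57574 in WT and 10766 to 11957 in KO), with Fabp7 at the floor of 3 reads in KO (Fabp7 and Hes5 reached the minimum mean only through WT EB8). All 5 neuronal markers tested were lower (summed level 18473 to 25168 in WT and 1548.9 to 1886.5 in KO). Of the pluripotency markers 6 of 7 were higher in KO (1382 to 1766 in WT and 24620 to 27777 in KO). Feeder fibroblast markers summed to 2117 to 2821.6 in WT and 907.36 to 3154.2 in KO. None of the 7 feeder markers tested was called. Among markers of other lineages, Foxa2 and Sox17 were lower of 5 endoderm genes tested, Eomes was higher of 5 mesoderm genes, Sox10 was higher and Foxd3 lower of 4 Schwann cell and neural crest genes, and the 1 keratinocyte gene tested was not called. The part of these markers in the results on the POU genes was not tested.

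From EB5 to EB8 the 3 genes rose in WT. Their means were 17.6-fold (Pou3f2), 141-fold (Pou3f3) and 27.8-fold (Pou3f4) higher at EB8. That of Pou3f2 was 10.6-fold without WT EB5 replicate 1 and 52.6-fold without WT EB5 replicate 2. The log2 changes were 4.52 ± 0.96, 7.09 ± 0.49 and 4.67 ± 0.77 (limma adjusted p 0.0112, 2.3e-05 and 0.0028), where 5.82% of genes were called higher. Pou3f4 was kept by the filter only through WT EB8, and with no filter its limma adjusted p was 0.00552. Both EB8 values lay above both EB5 values, as for 28.6% of genes. The call for Pou3f2 was lost without WT EB5 replicate 1 (adjusted p 0.129) or WT EB8 replicate 2 (0.0838) and in 2 other settings. Against WT ES cells the EB8 mean was 195-fold higher for Pou3f3 and 78.9-fold for Pou3f4 (165-fold and 74-fold against WT ES replicate 1 alone), and at least 671-fold higher for Pou3f2, which was at the floor of 3 reads per library in ES cells. This comparison was not fitted and is given as a ratio of means.

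Over the same interval in KO, Pou3f3 was 6.02-fold higher at EB8 than at EB5 (log2 change 2.4 ± 0.49, limma adjusted p 0.0483, with 0.428% of genes called higher), and this call was lost in 11 of 16 settings, including each of the 4 that left out a library of the comparison (adjusted p 0.0974 to 0.241). Pou3f2 was 9.01-fold higher, with both EB8 values above both EB5 values as for 22.3% of genes, and did not pass (log2 change 2.66 ± 0.96, limma adjusted p 0.251). Its fold was 3.35 without KO EB8 replicate 1 and 17.7 without KO EB5 replicate 1. The latter divides by KO EB5 replicate 2 alone, with 2 reads, at the floor of 3 reads. Pou3f4 was 1.45-fold lower, with overlapping values (log2 change -0.59 ± 0.77, adjusted p 0.836, 95% interval -2.25 to 1.08).

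The difference between genotypes in the EB5 to EB8 change was -4.69 ± 0.69 for Pou3f3 and -5.25 ± 1.08 for Pou3f4 (limma adjusted p 0.0121 and 0.0486), beside 0.682% of genes called lower. Since Pou3f4 passed the filter only through WT EB8, its value with no filter is also given (limma adjusted p 0.0787, not called). The call for Pou3f4 was lost in 15 of 20 settings, among them each that left out 1 library of the comparison (adjusted p 0.0503 to 0.177). That for Pou3f3 was lost without WT EB8 replicate 2 (0.0771) or KO EB5 replicate 2 (0.066) and at the threshold of 0.01. For Pou3f2 the difference was -1.86 ± 1.36 and did not pass (adjusted p 0.777).

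Set beside the earlier WT stage, the KO EB8 values of the 3 genes fell in different places. This comparison was chosen after the values had been seen. For Pou3f2 the KO EB8 values (55.9 and 12.8) overlapped those of WT EB5 (34.8 and 173.5), with a log2 difference of -1.5 ± 0.96 (limma adjusted p 0.352). For Pou3f3 both KO EB8 values (84.4 and 42.6) were above both of WT EB5 (12.2 and 19.8), as for 27.5% of genes, with a difference of 1.88 ± 0.49 (adjusted p 0.0319, 4.22% called higher) that was lost in 8 of 15 settings (adjusted p up to 0.2, and 0.165, 0.0701 and 0.2 without WT EB5 replicate 1, WT EB5 replicate 2 and KO EB8 replicate 1). For Pou3f4 both KO EB8 values (8.4 and 2.1) were below both of WT EB5 (25.4 and 23.1), as for 28.4% of genes, with a difference of -2.21 ± 0.77 that did not pass (adjusted p 0.0894), though it did with DESeq2 and with the replicate block.

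Levels of different genes can be compared only per length. At WT EB8 Pou3f2 had 1084 ± 243 normalised counts per kb of annotated exon (SD, n = 2), Pou3f3 739 ± 12.8, Pou3f4 570 ± 256 and Pou3f1 0.526. The value of Pou3f1, and with it the summed level, is uncertain because of its shared gene model. The exon lengths used are shorter than the RefSeq extents given above for Pou3f2, Pou3f3 and Pou3f4. With them, Pou3f2 took 45.3% of the summed level of the 4 genes, Pou3f3 30.9% and Pou3f4 23.8%. Both Pou3f2 values were above both Pou3f3 values, whereas those of Pou3f3 and Pou3f4 overlapped. Per kb of coding length the order of the leading genes turned, with a mean of 1514 for Pou3f3 and 1369 for Pou3f2, so that the data do not order them. The shares on that length were 39.1% for Pou3f2, 43.2% for Pou3f3 and 17.7% for Pou3f4. Pou3f3 (1532 and 1495) and Pou3f4 (817 and 423) then did not overlap, so that the shares and the overlap depend on the length used. At KO EB8 Pou3f2 had 20.3 ± 18.1 and Pou3f3 20.7 ± 9.65 per kb of exon, which did not differ beyond their spread, and Pou3f4 had 4.47 ± 3.78.

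**Figure D3:**
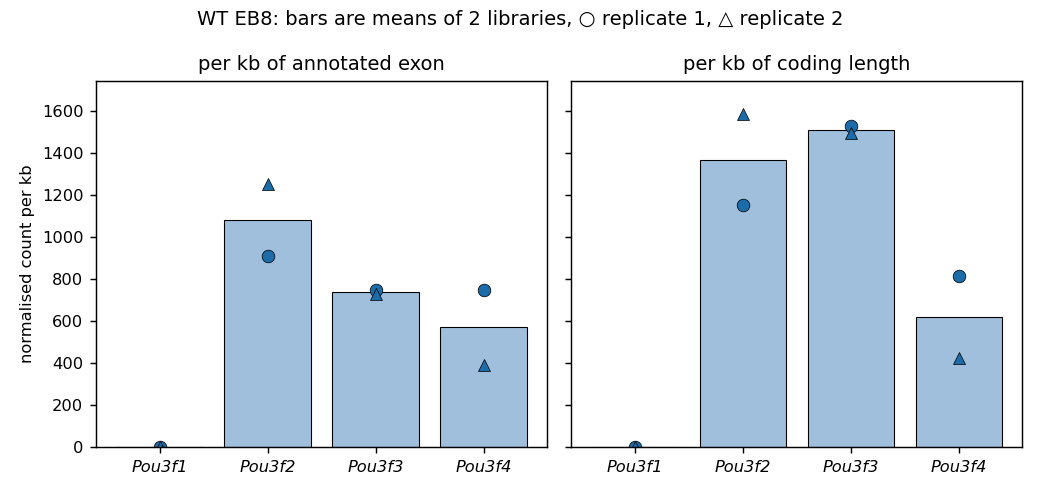
Normalised counts per kb at WT EB8 are shown for the 4 genes, per kb of annotated exon on the left and of coding length on the right, with bars for the mean of 2 libraries and points for each library. Pou3f2 leads on the left and Pou3f3 on the right. Pou3f1 is next to 0 in both, with counts that are uncertain because of its shared gene model.

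Pou3f1 was the member with the fewest reads, 87 over the 16 libraries. It had 6.4 and 2.4 normalised counts in WT ES and 2.5 and 2.1 in KO ES. At EB4 it had 20.8 and 4.3 in WT, while KO had 7 and 2.6. At EB5 it had 13.2 and 5.5 in WT, while KO had 10.4 and 2.9. At EB8 it had 2.1 and 1.1 in WT, while KO had 4.2 and 0, all from at most 4 reads. Genotypes overlapped at every stage, the most reads in any library were 19, and 8 of the 16 libraries had 3 reads or fewer. With a mean of 5.47 it was below the minimum of 10, and without a filter no contrast passed (KO against WT at EB4, log2 change -1.01, limma adjusted p 0.677). A change in Pou3f1 was not detectable from these counts. A low level of its RNA and reads left out because of the shared gene model above cannot be told apart.

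Of the epiblast genes listed beside Pou3f1, none of the 7 passed between genotypes at ES, with or without WT ES replicate 2. Dnmt3a, a de novo DNA methyltransferase, exceeded WT in the KO libraries of EB4 and EB5 (log2 change 0.95 and 0.92, limma adjusted p 0.0326 and 0.0417, with 2.75% and 2.17% of genes called higher). It was the only 1 of the 7 called at these stages, and at EB8 its KO mean was 1.53-fold lower. The others went both ways at EB4. Fgf5, Dnmt3b and Pim2 were 2-fold, 1.9-fold and 2.1-fold lower in KO. Lef1, Nodal and Otx2 were 2.3-fold, 2.1-fold and 1.1-fold higher. Nodal, a ligand of the transforming growth factor family, was the only one called at EB8, at 33.6 and 65.6 normalised counts in WT while the KO libraries had 819.8 and 963 (log2 change 4.21, adjusted p 1.37e-05, with 10.4% called higher).

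The other 11 POU genes served as a comparison within the domain family, and 9 passed the filter on low values. None was called at ES (with or without WT ES replicate 2), EB4 or EB5. At EB8 Pou2f2 and Pou6f1 were lower in KO, and Pou2f3 and Pou5f1 were higher, that is, 2 of 9 in each direction, where 12.5% of all genes were called lower and 10.4% higher, with a median change of -0.24 over the 9. Pou5f1 (Oct4), the pluripotency factor, had 193.2 and 260.5 normalised counts in the WT libraries while the KO libraries had 3217.9 and 3690. Pou6f1, expressed in the nervous system, had 892.6 and 966.7 in WT, while KO had 207.8 and 193.9 (log2 change -2.2, limma adjusted p 0.00133). Pou2f2 (Oct2), best known from B cells, had 647.9 and 1075.7 in WT, while KO had 96 and 65 (log2 change -3.39, adjusted p 0.00191). The 3 class III genes had the larger negative changes, but the list was small and the difference between the classes was not tested.

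The Sox genes listed pair with POU factors on DNA or are co-expressed with them in neural progenitors. Of 6 tested, 3 were lower in KO at EB8 and none higher (12.5% and 10.4% of all genes), with a median log2 change of -1.48. Sox3, of the same group of progenitor factors as Sox2, had 3285.8 and 3244.1 normalised counts in the WT libraries while the KO libraries had 155.1 and 118.2 (log2 change -4.58, limma adjusted p 6.65e-05). Sox11, a factor of young neurons, had 4309.7 and 5405 in WT, while KO had 979.1 and 608.3 (log2 change -2.64, adjusted p 0.00343). Sox12 was the only Sox gene called earlier, and was lower in KO at EB4, EB5 and EB8 (log2 change -1.06, -1.16 and -1.27). Sox2 did not pass at EB8 (3950.5 and 5240.9 in WT, 6517.1 and 3904.1 in KO).

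Of 8 genes known as neural targets or downstream genes of class III POU factors, none was called at ES (with or without WT ES replicate 2) or EB4. Pax6 was lower in KO at EB5, beside 2.17% of all genes, and Dll1, Fabp7, Pax6 and Zic1 were lower at EB8, beside 12.5%, with a median log2 change of -2.09 beside -0.03 for all genes. None was called higher. Fabp7, a fatty acid-binding protein of radial glia, had 353.9 and 280.6 normalised counts in WT EB8, while KO had 3.2 and 1.1. Fabp7 reached the minimum mean only through WT EB8 (mean of 5.33 without these libraries). Its call and its part in the median thus rest on the group through which it was kept. With no filter its log2 change of KO against WT at EB8 was -6.75 (limma adjusted p 0.000483). Pax6, a progenitor homeobox factor, was lower already at EB5, with 2855 and 6135.3 in WT, while KO gave 695.9 and 278.3 (log2 change -3.25, limma adjusted p 0.0133). Nes, Zfp521, Zic2 and Egr2 did not pass at EB8.

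**Figure D4:**
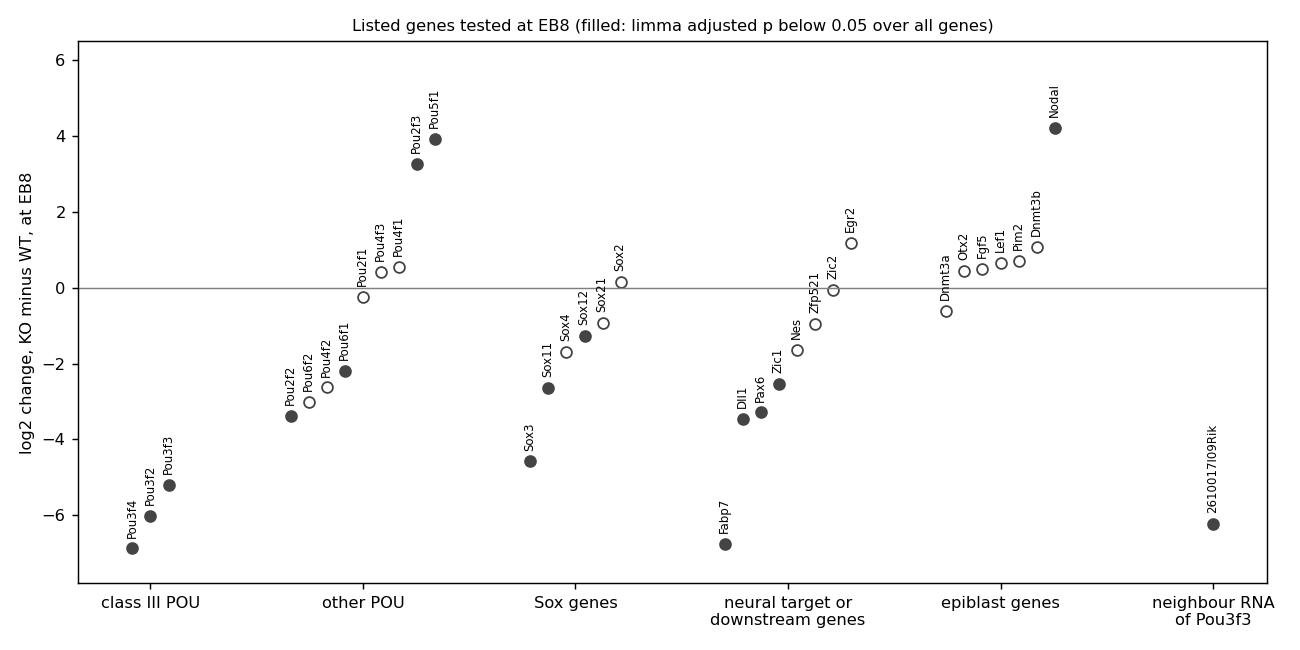
Each point is a listed gene at EB8, with the log2 change of KO minus WT on the y axis, grouped by list and filled where the limma adjusted p over all genes was below 0.05. The class III genes lie between -6.88 and -5.21, and the other POU genes are spread to both sides of 0.

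A long non-coding RNA gene next to Pou3f3, 2610017I09Rik (Pantr1; ENSMUSG00000060424, chromosome 1, 42705223 to 42723757, minus strand, listed as protein coding in that annotation), had a like profile. It had 493.6 and 345.2 normalised counts in the WT libraries of EB8 while the KO libraries had 6.3 and 3.2, and at most 0.9 in any other library. It reached the minimum mean of 10 only through WT EB8, with a mean of 0.807 over the other 14 libraries, so that its test rests on the group through which it was kept. Its log2 change at EB8 was -6.22, with a limma adjusted p of 3.87e-05 when no gene was filtered out.

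Genes with the profile most like each member were ranked by Pearson's r of log2(normalised count + 1) over the 16 libraries. For Pou3f2, Pou3f3 and Pou3f4 all genes named share the WT EB8 libraries as the highest points, so the values are a description. Pou3f2 was most like Sst (somatostatin, r = 0.966), Plagl2, Rgmb, Zfp768 and Hes5 (0.957), and its 5 genes included Sst and Hes5, which had at most 14.8 normalised counts in any KO library. The genes most like Pou3f3 included Ebf3 (0.98), 2610017I09Rik (0.976), Dcx (0.969) and 1700109F18Rik (0.967). Pou3f4 was most like Celsr2 (0.971), Gpr98 (0.965), Emid1 (0.955), Klc1 (0.953) and Elavl4 (0.95). Without the 2 WT EB8 libraries, r was 0.862 to 0.915 for the genes named with Pou3f2. It was then 0.808 to 0.919 for those named with Pou3f3 and 0.704 to 0.864 for those of Pou3f4. Hes5, 2610017I09Rik and 1700109F18Rik reached the minimum mean, and so the ranking, only through WT EB8. Ranked by Spearman's rho, only 1, 1 and 0 of the 5 genes remained in the top 5 for Pou3f2, Pou3f3 and Pou3f4, and 3, 4 and 4 of them did by r without WT ES replicate 2. For Pou3f1 the counts were too sparse for its most similar genes to be given as a finding.

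Among the members, r over the 16 libraries was 0.888 for Pou3f2 and Pou3f3, 0.872 for Pou3f2 and Pou3f4 and 0.856 for Pou3f3 and Pou3f4. Without WT ES replicate 2 it was 0.908, 0.9 and 0.855. Without the 2 WT EB8 libraries it was 0.59, 0.539 and 0.0932. The likeness of Pou3f3 to Pou3f4 thus rested on WT EB8.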

How the data were processed

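Per the labels, the methods and the submitters' processing notes, the authors sequenced poly-A libraries made without strand marking, aligned reads to mm9 with TopHat and normalised gene counts with DESeq2; the notes list TopHat2 2.0.10, HTSeq 0.5.4p3 and DESeq2 1.0.19. What the authors deposited is, per gene, a normalised signal: the count over the library's size factor. In every library 100% of values were whole multiples of 1 step (tolerance 0.001 of it), which gave back whole reads. The counting mode is not given in the sources used here. Positions are from GENCODE M1.

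The main test was limma 3.58.1 (R 4.3.3; eBayes with trend) on log2(normalised count + 1), with 8 group means over 16 libraries, residual degrees of freedom of 8, a minimum mean of 10 (16124 genes tested) and Benjamini-Hochberg adjustment at 0.05. Folds of low genes are understated on this scale. Alternatives were pseudocounts 0.1 and 5, no filter, a mean of at least 50, upper-quartile and quantile scaling, only the compared groups, a replicate block, edgeR 4.0.16 and DESeq2 1.42.0 on recovered reads, a threshold of 0.01 and leaving out each library. Scripts were tested on simulated data. A floor of 3 reads was used, for counting error only.

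The named genes are the members, the listed genes and the 5 genes most like each member, of which 1 gene is not reported here and is left out of its list's counts. The members, lists and comparisons were chosen with earlier results of these data known. KO EB8 against WT EB5, the motifs, the crossed block, the folds with a library left out and the correlations without WT ES replicate 2 were added after the values had been seen.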

Additional observations from a re-analysis of the deposited data

Results flagged for a closer look

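The change from EB5 to EB8 differed between genotypes for Pou3f3, by -4.69 on the log2 scale (KO minus WT, limma adjusted p 0.0121), as shown by a test of the difference itself. The same test gave -5.25 for Pou3f4 (adjusted p 0.0486), which was the less stable of the pair, with 5 of 20 settings keeping the call. Pou3f4 passed the filter on low values only through WT EB8, and its call was lost with no filter (limma adjusted p 0.0787).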

How the results depend on the processing

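With KO against WT at EB8 and EB8 against EB5 in WT, the number of members called stayed within 1.5 times the main count. At EB5 the count for KO against WT fell from 1 to 0 with a pseudocount of 0.1, no filter, only the compared groups or a threshold of 0.01, and ranged from 0 to 1 with a library left out. EB5 against EB4 in WT went from 0 to 1 with a pseudocount of 5, edgeR or DESeq2. EB8 against EB5 in KO went from 1 to 0 with a pseudocount of 0.1, no filter, a mean of at least 50, quantile scaling, only the compared groups, the replicate block or the threshold of 0.01, to 2 with DESeq2, and to 0 with any library of it left out. For the genotype difference in that step the count of 2 became 1 with a pseudocount of 0.1, no filter, a mean of at least 50, upper-quartile or quantile scaling or only the compared groups, and 0 at the threshold of 0.01, and ranged from 0 to 1 with a library left out. For KO EB8 against WT EB5 the count of 1 became 0 with no filter, a mean of at least 50, quantile scaling, only the compared groups or the threshold of 0.01, 2 with the replicate block or DESeq2, and 0 to 1 with a library left out. Their causes were not tested.

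Direction turned only for changes that did not pass. For Pou3f2, EB4 against ES in KO became 0.15 (edgeR) and 0.14 (DESeq2), and ran from -1.07 to 0.74 with a library left out. EB5 against EB4 in KO became -0.012 (pseudocount 5), -0.18 (quantile), -0.13 (edgeR) and -0.14 (DESeq2), and ran from -0.85 to 0.96, and KO against WT at EB4 ran from -1.79 to 0.024. For Pou3f4, EB4 against ES in KO became 0.049 (pseudocount 5), 0.020 (upper-quartile), 0.30 (edgeR) and 0.31 (DESeq2), and ran from -1.02 to 0.99, EB5 against EB4 in KO from -0.17 to 1.84 and EB8 against EB5 in KO from -1.38 to 0.21. Genotype differences became -0.20 (quantile) for Pou3f3 from ES to EB4 and 0.076 (pseudocount 0.1) for Pou3f4 from EB4 to EB5. With a library left out they ran from -0.11 to 0.48 (Pou3f3, ES to EB4), -1.46 to 0.55 (Pou3f4, ES to EB4), -0.46 to 0.19 (Pou3f3, EB4 to EB5) and -1.14 to 0.88 (Pou3f4, EB4 to EB5).

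The replicate numbers are not said to mark a line. Deviations of same-numbered libraries correlated at 0.33, -0.06, -0.21 and -0.13 between genotypes at ES, EB4, EB5 and EB8. Within WT the correlation was -0.08 for EB4 against ES, 0.61 for EB5 against EB4 and 0.57 for EB8 against EB5, and within KO 0.39, 0.42 and 0.23. The replicate block gave 983 genes called at EB5 and 4081 at EB8, and crossing the KO numbers 701 and 3857, against 700 and 3697 without a block. A replicate block within genotype raised the calls of EB8 against EB5 from 1683 to 2361 in WT and from 119 to 299 in KO, of EB5 against EB4 from 601 to 917 and from 405 to 724, and of EB4 against ES from 2668 to 3873 and from 564 to 1291. For Pou3f3, EB8 against EB5 in KO, the adjusted p was 0.0512 with the block and 0.0428 with the block within genotype. For Pou3f4 the genotype difference in that step had 0.0188 and 0.00944. Upper-quartile scaling moved the median of all genes at EB8 to 0.11 and the calls from 1677 higher and 2020 lower to 2278 and 1615, with the 3 members lower in both. Counts of 0 to 20 reads limit every statement on ES and EB4 and all on Pou3f1.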
